A study of Homo sapiens with 2 samples.

Results

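Cluster 9 is one of the 11 clusters, numbered 0 to 10, in the cell table deposited with a single-cell RNA study of human adipose-derived mesenchymal stem cells. Its members are all cells that carry cluster number 9, in either library. They are 291 of 20656 cells (1.41%), of which 183 of 12555 came from the TGFB1 library and 108 of 8101 from the untreated library. The cells were bought from a commercial supplier, grown to near confluence and starved overnight. One culture then received transforming growth factor beta 1 (TGFB1) at 10 ng/mL for 24 h, and the other was left without treatment. Each condition is 1 library, so a difference between libraries has no replicate check and no p-value is given. All intervals below are 95% intervals that cover counting error only, not the spread between cultures or between cells.

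PI16, a secreted peptidase inhibitor-like protein, marks fibroblasts of the connective tissue around adipose lobules that are regarded as progenitors of other fibroblasts and of preadipocytes. PTX3 is a secreted pentraxin of the innate immune system and of the matrix. TGFB1 binds receptors that phosphorylate SMAD transcription factors, and in stromal cells it raises contractile and matrix genes, the inhibitor SMAD7 and the cytokine IL11. ENG (endoglin, CD105) is a TGFB co-receptor and one of the surface antigens by which mesenchymal stromal cells are commonly defined.

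The RefSeq promoter windows of 4 genes, on the GRCh38.p14 build, are printed. TSHZ2 and ENG are among the 12 leading genes named below. PI16 is the given marker of the cluster, and IL11 had the highest ratio of TGFB1 over untreated within it. Each window runs 5′ to 3′ on the strand of its gene, from 250 bases before the start to 50 after it. Capitals mark the SMAD box CAGAC or its reverse complement GTCTG, and the AP-1 motif TGANTCA, searched on both strands. The windows are chr20:52972108-52972407 on the plus strand for TSHZ2, chr9:127854609-127854908 on the minus strand for ENG, chr6:36948046-36948345 on the plus strand for PI16 and chr19:55370414-55370713 on the minus strand for IL11.
TSHZ2: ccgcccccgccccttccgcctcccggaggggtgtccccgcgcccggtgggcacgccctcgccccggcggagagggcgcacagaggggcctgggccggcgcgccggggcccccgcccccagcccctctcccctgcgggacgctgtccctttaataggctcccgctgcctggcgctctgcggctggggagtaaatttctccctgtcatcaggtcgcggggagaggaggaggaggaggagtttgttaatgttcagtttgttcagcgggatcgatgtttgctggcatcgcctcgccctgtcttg
ENG: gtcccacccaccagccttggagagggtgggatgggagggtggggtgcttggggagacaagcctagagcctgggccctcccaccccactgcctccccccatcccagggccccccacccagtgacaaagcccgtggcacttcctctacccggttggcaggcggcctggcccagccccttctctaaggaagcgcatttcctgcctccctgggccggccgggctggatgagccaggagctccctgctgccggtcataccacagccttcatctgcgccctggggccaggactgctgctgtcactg
PI16: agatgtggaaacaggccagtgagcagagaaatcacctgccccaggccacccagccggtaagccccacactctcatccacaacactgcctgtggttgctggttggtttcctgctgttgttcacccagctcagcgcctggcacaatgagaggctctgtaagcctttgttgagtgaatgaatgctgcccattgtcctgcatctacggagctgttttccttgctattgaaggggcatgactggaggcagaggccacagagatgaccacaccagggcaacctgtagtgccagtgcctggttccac
IL11: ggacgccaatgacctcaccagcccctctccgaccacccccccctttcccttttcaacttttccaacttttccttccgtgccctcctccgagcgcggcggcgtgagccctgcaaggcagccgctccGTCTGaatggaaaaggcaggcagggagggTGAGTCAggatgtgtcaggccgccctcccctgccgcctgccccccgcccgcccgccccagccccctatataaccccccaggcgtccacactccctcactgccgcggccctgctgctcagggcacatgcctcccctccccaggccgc
Neither motif occurred in the printed windows of TSHZ2, ENG and PI16, and each occurred 1 time in that of IL11. For TSHZ2, 2 windows are listed, and only the first is printed and described. Among all 35116 windows of the same length, 45.3% held the SMAD box and 7.71% the AP-1 motif. Of the 12 leading genes named below, 6 had a window, of which 3 held the SMAD box and 0 the AP-1 motif. Among 18 SMAD3-responsive genes, 16 had a window, of which 8 held the SMAD box and 1 the AP-1 motif. These matches describe letters in the windows only.

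By the median, cells of cluster 9 were somewhat shallower than the rest. Their median was 13033 UMIs (unique molecular identifiers, 1 per counted transcript) in the TGFB1 library and 14411 in the untreated library, against 15151.5 and 19282 in the other cells. The upper quartile was higher in cluster 9 of the TGFB1 library, at 25064.5 against 22969.25 UMIs. In the untreated library it was lower, at 22931 against 25702. Median genes per cell were 4072 and 4524.5 in cluster 9, against 4101.5 and 4893 in the other cells. Mitochondrial transcripts took a median of 1.97% and 2.31% of a cell's UMIs in cluster 9, against 2.50% and 2.66% outside it. Ribosomal protein genes took 10.6% and 10.9% of UMIs in cluster 9, against 13.9% and 15.3% outside it. The sums over the cluster rest on 3227730 UMIs in the TGFB1 library and 1968599 in the untreated library. Between the libraries, 18 cell barcodes occurred in both, and 4 cells of cluster 9 carried such a barcode, among them both cells of 1 barcode.

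Levels below are UMIs summed over a group of cells, scaled to the group's total of UMIs (CPM, counts per 1000000). A gene was counted as higher or lower when the sums differed at least 2-fold and at least one of them reached 20 CPM. In the TGFB1 library, 351 of 6823 genes were higher in cluster 9 than in the other cells (5.14% of genes tested) and 24 were lower (0.352%). In the untreated library, 546 of 7225 genes were higher (7.56%) and 148 were lower (2.05%). In both libraries together, 245 of 6510 genes were higher in each (3.76%) and 12 were lower in each (0.184%). The clusters were drawn from these same genes, so the counts describe the cluster and test nothing. They also depended on scaling. With TMM factors the split was 170 higher and 230 lower in the TGFB1 library and 288 higher and 497 lower in the untreated library. With median-of-ratios factors it was 213 and 107, and 322 and 376. The median of all genes, 0.11 and 0.10 on the log2 scale, moved by -0.45 and -0.39 with TMM and by -0.31 and -0.32 with the median of ratios. Differences of about 2-fold against the other cells are therefore scale-dependent, while those of the leading genes are far larger.

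The 12 leading genes, taken as the highest ratios over the other cells in whichever library the ratio was nearer to 1, were ENSG00000271774, TSHZ2, LINC02899, OVCH1-AS1, DUXAP8, KCND2, ENSG00000286481, LINC03000, ENG, COL11A1, ENSG00000254987 and ADGRL2. Of these, 0 were on the list of 16 adipose progenitor markers. The leading genes thus do not carry the progenitor label that the cluster was given, and it is called by its number here.

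TSHZ2, a zinc finger homeobox transcription factor, had 251 CPM in cluster 9 of the TGFB1 library against 0.870 CPM in the other cells, and 636 CPM against 1.87 CPM in the untreated library. That was 289-fold (245 to 342) and 339.7-fold (299.9 to 386). Cluster 9 held 81.9% of all TSHZ2 UMIs of the TGFB1 library and 80.0% of those of the untreated library. ENSG00000271774, an antisense transcript at 20:53255979-53487274 on the minus strand, lies within TSHZ2 at 20:52972407-53495330 on the plus strand (GENCODE 29, GRCh38). It had 38.1 CPM against 0.121 CPM in the TGFB1 library and 106 CPM against 0.150 CPM in the untreated library. Whether the counting used strand is not stated in the sources used here, so reads of these overlapping genes may not be separable.

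KCND2, a voltage-gated potassium channel subunit, had 281 CPM in cluster 9 and 2.91 CPM outside it in the TGFB1 library, and 419 and 2.83 CPM in the untreated library. ENG had 236 CPM in cluster 9 against 4.27 CPM in the TGFB1 library and 269.7 CPM against 3.57 CPM in the untreated library, 55.3-fold (50.1 to 61.0) and 75.5-fold (67.0 to 85.0). COL11A1, a fibrillar collagen chain of cartilage and of activated fibroblasts, had 162 CPM against 4.47 CPM and 76.2 CPM against 1.26 CPM. ADGRL2, an adhesion G protein-coupled receptor, had 35.3 CPM against 1.56 CPM and 50.8 CPM against 1.77 CPM. The other 7 leading genes are noncoding transcripts or pseudogenes by name or annotation, or carry only an identifier, and their ratios over the other cells ran from 27.5-fold to 706-fold. On the same build and annotation, KCND2 lies at 7:120273668-120750331 on the plus strand, ENG at 9:127815012-127854756 and COL11A1 at 1:102876467-103108872, both on the minus strand. All 12 had higher sums in cluster 9 in both libraries, as the plot of their levels shows.

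**Figure D1:**
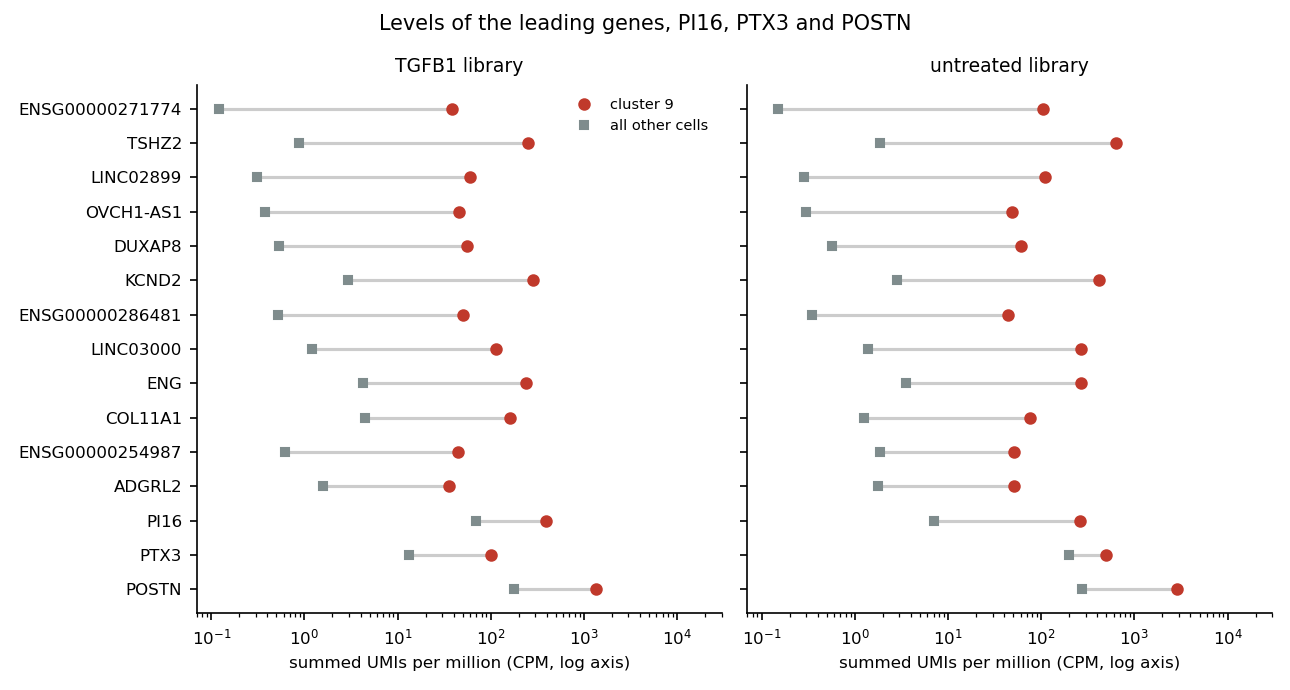
Summed levels in CPM (log axis) of the 12 leading genes, PI16, PTX3 and POSTN in cluster 9 (red circles) and in all other cells (grey squares), 1 panel per library and 1 library per condition. The gap is widest for ENSG00000271774, followed by TSHZ2 in the TGFB1 library and by LINC02899 in the untreated library. PTX3 in the untreated library stands at 499.9 against 200.1 CPM.

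The 12 leading genes were also counted in single cells at equal depth. They were picked for their ratios in these same cells, so the counts describe the cluster and test nothing. Each cell was thinned at random to 7500 UMIs, which kept 131 of 183 and 85 of 108 cells of cluster 9, and 9199 and 7561 other cells. The median cell of cluster 9 showed 5 of the 12 leading genes in each library, and the median other cell 0. At least 3 leading genes were seen in 104 of 131 cells of cluster 9 in the TGFB1 library (79.4%) and in 77 of 85 in the untreated library (90.6%). In the other cells, 32 of 9199 (0.348%) and 16 of 7561 (0.212%) reached 3. Of those 32 cells, 19 lay in cluster 0 and 6 in cluster 10, and of those 16 cells, 8 lay in cluster 10. These clusters differ widely in size. Before thinning, cluster 0 held 5303 cells of the TGFB1 library, and cluster 10 held 113 cells of the TGFB1 library and 33 of the untreated library.

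**Figure D2:**
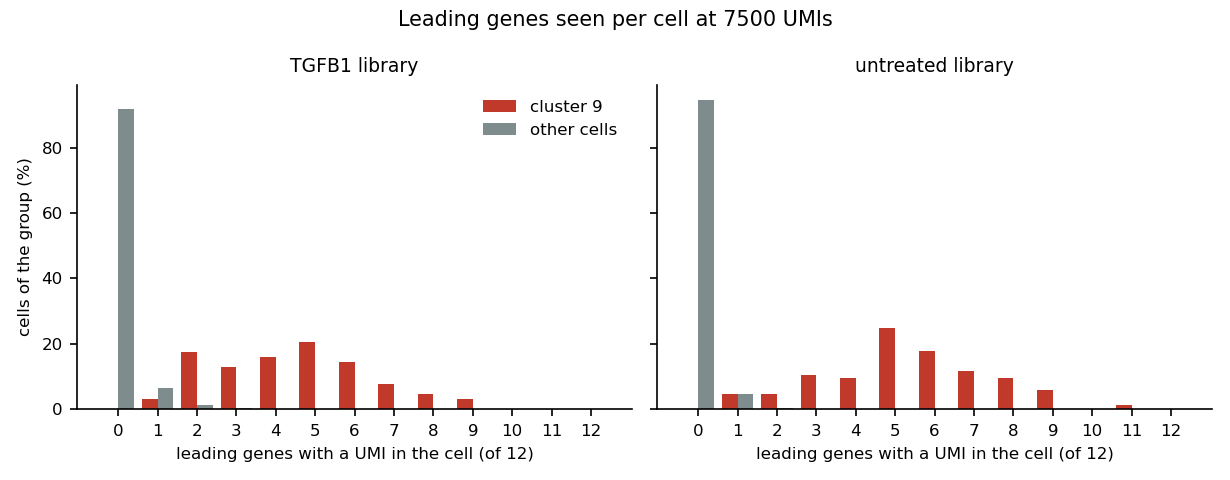
Percent of cells (vertical axis) by the number of the 12 leading genes with at least 1 UMI (horizontal axis) after thinning to 7500 UMIs, in cluster 9 (red) and other cells (grey) of each library. Most other cells show 0 leading genes, whereas cells of cluster 9 spread around a median of 5.

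TSHZ2 was seen in 62.6% and 84.7% of thinned cells of cluster 9 in the TGFB1 and untreated libraries, against 0.435% and 0.238% of the other cells. ENG was seen in 71.0% and 74.1% of cluster 9 against 2.78% and 1.72% of the other cells. Before thinning the TSHZ2 shares were 71.6% and 90.7% against 1.12% and 0.450%, and the ENG shares 83.1% and 88.0% against 4.96% and 4.09%. TSHZ2 or ENG was seen in 119 of 131 and 79 of 85 thinned cells of cluster 9 (90.8% and 92.9%).

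PI16 was enriched in the cluster but unevenly spread over its cells. It had 390.1 CPM in cluster 9 against 70.0 CPM in the other cells of the TGFB1 library, and 262 CPM against 7.11 CPM in the untreated library, 5.57-fold (5.26 to 5.90) and 36.9-fold (33.2 to 40.9). Yet 107 of 183 and 70 of 108 cells of the cluster had no PI16 UMI, and the 19 and 11 cells with the most PI16 held 73.3% and 80.2% of its UMIs. A single cell gave 9.69% of the PI16 UMIs of the cluster in the TGFB1 library and 23.8% in the untreated library. At equal depth, 40.5% (interval 32.0 to 49.4) and 35.3% (25.2 to 46.4) of cells of cluster 9 showed PI16, against 19.9% and 3.58% of the other cells. Unthinned, those shares were 41.5% and 35.2% in cluster 9, against 26.8% and 6.83%. Cluster 9 contributed 8.04% of the PI16 UMIs of the TGFB1 library and 30.3% of those of the untreated library.

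PTX3 had 99.5 CPM in cluster 9 against 13.4 CPM outside it in the TGFB1 library, and 499.9 CPM against 200.1 CPM in the untreated library, 7.44-fold (6.61 to 8.36) and 2.50-fold (2.34 to 2.66). With TMM factors the untreated log2 ratio was 0.97, just under 2-fold. It was seen in 19.1% and 51.8% of thinned cells of cluster 9, against 7.001% and 44.3% of other cells. Unthinned, the shares were 27.9% and 53.7%, against 11.5% and 59.9%, so the order in the untreated library turned with depth and none is read from it. Both PI16 and PTX3 were seen in 14 of 131 thinned cells of cluster 9 in the TGFB1 library and in 18 of 85 in the untreated library. Neither was seen in 67 of 131 and 29 of 85.

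**Figure D3:**
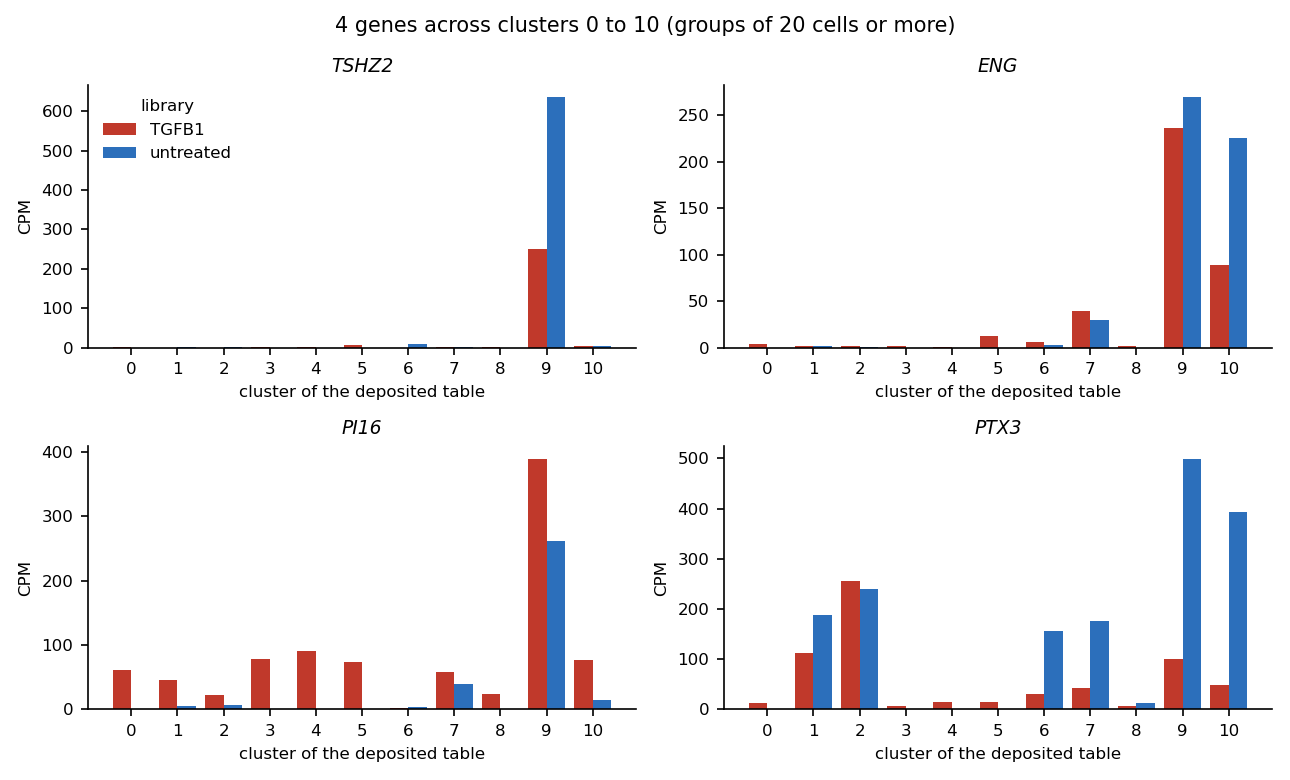
Summed levels in CPM of TSHZ2, ENG, PI16 and PTX3 in each cluster, with bars for the TGFB1 library (red, left) and the untreated library (blue, right); a group of under 20 cells has no bar. TSHZ2 stands at 251 and 636 CPM in cluster 9, ENG is also high in cluster 10, and PTX3 is present in many clusters.

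Across clusters of at least 20 cells in a library, TSHZ2 did not exceed 7.38 CPM outside cluster 9 in the TGFB1 library or 9.10 CPM in the untreated library. ENG reached 89.0 CPM in cluster 10 and 39.5 CPM in cluster 7 of the TGFB1 library, and 226 and 29.9 CPM in the same clusters of the untreated library. Of the other leading genes, ADGRL2 reached 30.4 CPM in cluster 10 of the TGFB1 library and 68.9 CPM in that of the untreated library, the second of these above the 50.8 CPM of cluster 9. ENSG00000286481 had 43.7 CPM in cluster 9 of the untreated library against 59.4 CPM in cluster 10. Cluster 10 held 33 untreated cells. PI16 ran from 1.96 to 90.1 CPM in other clusters of the TGFB1 library, and the highest of the untreated library was 38.6 CPM in cluster 7. PTX3 reached 255 CPM in cluster 2 of the TGFB1 library, above the 99.5 CPM of cluster 9 there.

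Across genes at 20 CPM or more, the cluster nearest to cluster 9 was cluster 7 in both libraries, with a Pearson r of 0.949 and 0.906 between log2(CPM + 1) values. It was followed by cluster 0 in the TGFB1 library (0.943) and cluster 1 in the untreated library (0.899). These points share a library and depth differs between clusters, so the values only order the clusters. All 12 leading genes were at least 2-fold higher in cluster 9 than in each of these neighbours. They were picked for their ratios over other cells that include these neighbours, so this describes them and tests nothing. Cluster 9 had 198 genes higher than cluster 7 in the TGFB1 library (2.90% of 6822) and 472 in the untreated library (6.61% of 7139). Lower than in cluster 7 were 52 (0.762%) and 116 (1.62%).

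Among the progenitor markers, 4 of 11 tested were higher in cluster 9 of the TGFB1 library (PI16, DPT, COL15A1 and CD248) and 0 lower, with a median log2 ratio of 0.67 against 0.11 for all genes tested. In the untreated library 3 of 11 were higher (PI16, COL15A1 and CD248) and ALDH1A3 was lower, with a median of 0.71 against 0.10. Of all genes tested, 5.14% and 7.56% were higher, and 0.352% and 2.05% lower. PI16, counted as higher in both libraries, is the marker given with the cluster, so its count is no separate evidence for the label. COL15A1, a basement membrane collagen found in fibroblasts of many tissues, had 170.4 CPM against 16.1 CPM and 169 CPM against 18.2 CPM. CD248 (endosialin), a stromal surface glycoprotein, had 64.8 CPM against 27.6 CPM and 100.1 CPM against 39.0 CPM, but cluster 10 stood higher in both libraries, at 73.8 and 172 CPM. DPP4 (CD26), a surface peptidase of interstitial progenitors, was close to equal, with 85.2 CPM in cluster 9 against 70.4 CPM and 213 CPM against 206 CPM. CD34, a surface antigen of such cells in tissue, had 1 UMI in the cluster in each library. Under TMM the count in the TGFB1 library was 3 higher and 1 lower, and in the untreated library 3 higher and 2 lower.

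Several matrix genes were higher in cluster 9. Of the fibrillar and basement membrane list, 7 of 31 tested were higher in cluster 9 of the TGFB1 library and 9 of 32 in the untreated library, with 0 lower in either and medians of 0.32 and 0.70. With TMM or median-of-ratios factors, 3 and 6 were higher and 1 lower in each library, and the TGFB1 median was -0.10 with TMM. Over all genes tested with the main scaling, 5.14% and 7.56% were higher. POSTN, a matricellular protein, had 1350.2 CPM in cluster 9 against 176 CPM in the TGFB1 library and 2841 CPM against 274 CPM in the untreated library. It was not particular to cluster 9, since cluster 10 had 2288 and 4203 CPM of POSTN in the TGFB1 and untreated libraries and cluster 7 had 1623 and 2512 CPM. FBLN2, an elastic fibre-associated glycoprotein, had 253 CPM against 23.5 CPM and 378 CPM against 28.2 CPM. COMP, a pentameric matrix protein of tendon and cartilage, had 2140.5 CPM against 889 CPM and 1556 CPM against 333 CPM, and cluster 7 had 1876 and 1181 CPM of COMP. COL12A1, a collagen of fibril surfaces, had 1232 CPM against 557 CPM and 1065 CPM against 473 CPM. VCAN, a large proteoglycan, had 2813 CPM against 1288 CPM and 1340.0 CPM against 462 CPM. With COL11A1, these 6 were the matrix genes higher in both libraries. In the TGFB1 library COMP, COL12A1 and VCAN were under 2-fold with TMM or median-of-ratios factors.

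Secreted and surface factors also set the cluster apart. SFRP4, a secreted Wnt antagonist, had 313 CPM in cluster 9 against 49.9 CPM in the TGFB1 library and 675 CPM against 58.9 CPM in the untreated library. It was 1 of 4 genes of the Wnt list (of 16 and 15 tested) higher in each library, with FZD1, FZD4 and ROR2, while WNT5A and DKK2 were lower in the untreated library and 0 were lower in the TGFB1 library. GDF15, a stress-induced cytokine of the TGFB superfamily, had 93.9 CPM against 10.8 CPM and 86.4 CPM against 9.79 CPM. ADAMTS5, an aggrecan-cleaving protease, had 40.9 CPM against 2.51 CPM and 186 CPM against 25.4 CPM. PAPPA, which cleaves IGF-binding proteins, had 542 CPM against 94.9 CPM and 305 CPM against 119 CPM. Among matrix proteases and their inhibitors, MMP14, TIMP3, ADAMTS5 and PAPPA were higher in cluster 9 in both libraries, within 6 of 18 tested in the TGFB1 library and 4 of 19 in the untreated library. On the lower side were MMP3 in the TGFB1 library and MMP1 and PLAU in the untreated library, and the list's medians were 0.42 and -0.01. FGF7, a growth factor for epithelia made by stromal cells, had 611 CPM against 235 CPM and 1021 CPM against 427 CPM. CFD, the adipocyte-associated complement factor D, had 12.7 CPM against 1.41 CPM and 29.5 CPM against 1.84 CPM. Of the pentraxin and complement list, 2 of 12 and 3 of 14 were higher and 0 lower. Over all genes tested, 5.14% and 7.56% were higher, and 0.352% and 2.05% were lower. The Wnt, protease and complement counts use the main scaling, on which 2-fold differences against the other cells depend.

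Components of TGFB and BMP signalling were higher in part. Among TGFB ligands, receptors and SMADs, 4 of 17 were higher in cluster 9 of the TGFB1 library (LTBP3, ITGB5, ITGB8 and LRRC32). In the untreated library 6 of 19 were higher, and 0 were lower in either library. The list's medians were 0.35 and 0.70, against 0.11 and 0.10 over all genes tested. Of all genes, 5.14% and 7.56% were higher. ITGB8, an integrin chain that takes part in releasing active TGFB from its latent form, had 75.6 CPM against 7.99 CPM and 271 CPM against 89.0 CPM. Of the BMP pathway list, 3 of 12 were higher in the TGFB1 library, SMAD6 and BAMBI among them. In the untreated library 5 of 14 were higher and 1 lower, and the medians were 0.51 and 0.88. The counts of both lists use the main scaling, on which 2-fold differences against the other cells depend. BAMBI, a pseudoreceptor that dampens TGFB and BMP signalling, had 99.1 CPM against 27.6 CPM and 163 CPM against 15.2 CPM. The SMAD3-responsive genes differed less in the TGFB1 library, where 0 of 18 were higher and 1 (TSPAN2) was lower, with a median log2 ratio of 0.15 that was -0.27 with TMM and -0.13 with the median of ratios. In the untreated library 6 of 14 were higher (SMAD7, PMEPA1, LDLRAD4, CDKN2B, TGFBI and BHLHE40) and 0 lower, and the list's median was 0.80. With TMM 3 of 13 were higher and 2 lower there, and with the median of ratios 3 were higher and 0 lower.

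Of the mesenchymal stromal antigens, ENG and PDGFRA were higher in cluster 9 of the TGFB1 library (2 of 11 tested). In the untreated library ENG was higher and S100A4 lower. Over all genes tested, 5.14% and 7.56% were higher in the TGFB1 and untreated libraries. THY1 (CD90) had 418 CPM in cluster 9 against 613 CPM in the TGFB1 library and 487 CPM against 804 CPM in the untreated library. NT5E (CD73) had 127 CPM against 154 CPM and 158 CPM against 283 CPM. The ENG difference was thus not shared by the other 2 defining antigens.

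With the main scaling, fewer genes were lower than higher in cluster 9. More were lower than higher with TMM factors in both libraries, and with the median of ratios in the untreated library only. The 8 lowest by the same ranking were CDH6, CAMK2N1, CKS2, LMOD1, PEG10, LINC00578, CNTNAP3B and ENSG00000289349. CDH6, a cadherin, had 86.1 CPM against 223 CPM in the TGFB1 library and 57.4 CPM against 166 CPM in the untreated library. CAMK2N1, an inhibitor of CaM kinase II, had 127 CPM against 269.9 CPM and 130.0 CPM against 375 CPM. LMOD1, a smooth muscle actin nucleator, had 64.1 CPM against 136 CPM and 36.6 CPM against 79.2 CPM.

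Among contractile genes, 3 of 16 were lower in cluster 9 of the TGFB1 library and 1 of 15 (LMOD1) in the untreated library, with 0 higher and medians of -0.43 and -0.47. Over all genes the shares lower were 0.352% and 2.05%, so the untreated count rests on a single gene. The lower counts were 6 and 4 with TMM and 4 and 4 with the median of ratios. ACTA2, smooth muscle alpha actin, had 596 CPM in cluster 9 against 1281 CPM in the TGFB1 library and 122 CPM against 203 CPM in the untreated library. TAGLN, an actin-binding protein of smooth muscle, had 4469 CPM against 8650.5 CPM and 2633 CPM against 4998 CPM.

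Genes of the G2 and M phases were lower in cluster 9 than in the pooled other cells of the untreated library. The G2 and M phase genes summed to 78.1 CPM in cluster 9 against 188 CPM in the TGFB1 library, and to 39.6 CPM against 524 CPM in the untreated library, where all 11 tested were lower with a median log2 ratio of -3.92. In the TGFB1 library 1 of them was tested and 0 were lower. Shares lower over all genes tested were 0.352% in the TGFB1 library and 2.05% in the untreated library. The S phase genes summed to 139.7 CPM in cluster 9 against 129 CPM in the TGFB1 library and to 122 CPM against 252 CPM in the untreated library, where 1 of 3 tested was lower, and 0 of 2 in the TGFB1 library. A UMI of MKI67 or TOP2A, proteins of dividing cells, was found in 12 of 183 cells (6.56%) and 6 of 108 cells (5.56%) of cluster 9, against 7.93% and 17.6% of the other cells. Without such cells, 89 genes instead of 148 were lower in cluster 9 of the untreated library. The median depth of cluster 9 was also below that of the other cells, and its part in these shares was not tested.

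Markers of other cell types were summed in the same way, and their part in the differences was not tested. Endothelial markers summed to 35.0 and 27.9 CPM in cluster 9 of the TGFB1 and untreated libraries, against 19.0 and 15.8 CPM in the other cells, with 6 and 5 of 12 at 0 in the cluster. Immune markers summed to 27.9 and 32.0 CPM against 20.5 and 28.6 CPM, with 7 and 6 of 12 at 0. Glial markers summed to 3.10 and 2.03 CPM against 0.83 and 0.92 CPM. Mural markers summed to 208 and 255 CPM in cluster 9 against 321 and 478 CPM. Epithelial markers, mostly keratins, summed to 232 and 526 CPM against 277 and 721 CPM, and mesothelial markers to 168 and 315 CPM against 202 and 684 CPM. The epithelial sum joins members that went opposite ways. Of 2 tested in the untreated library, KRT18 was higher in cluster 9 and KRT19 lower. Tendon and ligament markers summed to 2432 and 1735 CPM against 1238 and 581 CPM, and chondrogenic markers to 2202 and 1624 CPM against 953 and 397 CPM. Both lists hold COMP, the 1 member of either that was at least 2-fold higher in cluster 9 in each library, with 3 and 2 of 11 tendon markers and 2 and 2 of 10 chondrogenic markers at 0 in the cluster. Osteogenic markers summed to 341 and 581 CPM against 362 and 761 CPM.

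Within cluster 9, the TGFB1 library was then set against the untreated library. Of 7254 genes, 194 were higher with TGFB1 (2.67%) and 296 were lower (4.08%). In the other cells, 258 of 6680 were higher (3.86%) and 324 lower (4.85%). Of 6396 genes tested in both, 123 were higher both inside and outside the cluster (1.92%) and 139 were lower in both (2.17%). Inside and outside share their library, so the correspondence carries the library difference as well as the treatment. Clusters 0, 3, 4 and 5 each had under 20 untreated cells, so the other cells of the 2 libraries are made up of different clusters.

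IL11, a cytokine of the interleukin 6 family at 19:55364389-55370463 on the minus strand, had 79.0 CPM in TGFB1 cells of cluster 9, from 255 UMIs in 91 cells, against 2.03 CPM in untreated cells, from 4 UMIs in 4 cells. That was 38.9-fold (15.0 to 144), and outside the cluster IL11 had 144 CPM against 3.13 CPM, 46.1-fold. At equal depth IL11 was seen in 32.1% of TGFB1 cells and 1.18% of untreated cells of cluster 9, against 51.9% and 2.17% of the other cells. Cluster 9 gave 0.851% of the IL11 UMIs of the TGFB1 library, although it held 1.46% of its cells.

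The next highest ratios rested on few untreated UMIs. TSPAN13, a tetraspanin, had 38.1 CPM with TGFB1 against 1.52 CPM, from 123 and 3 UMIs, 25.01-fold (8.36 to 123). TSPAN2, another tetraspanin, had 91.4 CPM against 4.57 CPM, 19.99-fold (10.4 to 44.2). GAL, the neuropeptide galanin, had 23.2 CPM against 1.02 CPM, from 75 and 2 UMIs, 22.9-fold (6.11 to 192). ENSG00000250064 had 78.7 CPM against 3.05 CPM, but 39.8% of its TGFB1 UMIs came from 1 cell. Better covered were PTGS2, the inducible cyclooxygenase, with 66.9 CPM against 8.64 CPM, XYLT1, a xylosyltransferase that starts glycosaminoglycan chains, with 431 CPM against 79.8 CPM, and BMP6, a bone morphogenetic protein, with 275 CPM against 56.9 CPM. PLD5 had 491 CPM against 94.5 CPM, RHOB, a small GTPase, 58.9 CPM against 12.7 CPM, and XRCC4, a DNA end-joining factor, 119 CPM against 26.4 CPM.

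Of the 18 SMAD3-responsive genes, 11 were higher with TGFB1 inside cluster 9 and 0 lower, with a median log2 ratio of 1.65 against -0.03 over all genes. Outside the cluster 15 were higher and 0 lower, and the median log2 ratio was 2.29 against -0.07. Of all genes tested, 2.67% were higher inside the cluster and 3.86% outside it. CCN2, a matricellular growth factor, had 2152 CPM in TGFB1 cells against 636 CPM in untreated cells of cluster 9, 3.38-fold. PMEPA1, an inhibitor of SMAD signalling, had 147 CPM against 35.6 CPM, 4.14-fold, and was 8.46-fold higher outside. SMAD7, the inhibitory SMAD, had 54.2 CPM against 48.8 CPM in cluster 9, 1.11-fold, and was 2.37-fold higher outside.

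Several of these genes stood higher in untreated cells of cluster 9 than in untreated cells outside it. LDLRAD4, which dampens SMAD activation, had 88.3 CPM in TGFB1 cells against 26.4 CPM in untreated cells of cluster 9, while untreated cells outside had 2.60 CPM. It was 3.34-fold higher with TGFB1 inside the cluster and 20.6-fold higher outside. KANK4, a cytoskeletal adaptor protein, had 47.1 CPM against 15.7 CPM in cluster 9, 2.99-fold (2.02 to 4.55), and was 53.5-fold higher outside, where untreated cells had 0.772 CPM. Its untreated level in cluster 9 rests on 31 UMIs in 17 cells. CDKN2B, a cell cycle inhibitor, had 365 CPM against 109 CPM, 3.36-fold inside and 7.78-fold outside. In all, 6 of the 18 genes had a log2 ratio lower inside than outside by at least 1 (SMAD7, PMEPA1, LDLRAD4, CDKN2B, KANK4 and TSPAN13) and 0 higher, with a median difference of -0.54. Over all 7254 genes tested, 1.31% had such a lower ratio inside and the median difference was 0.03.

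**Figure D4:**
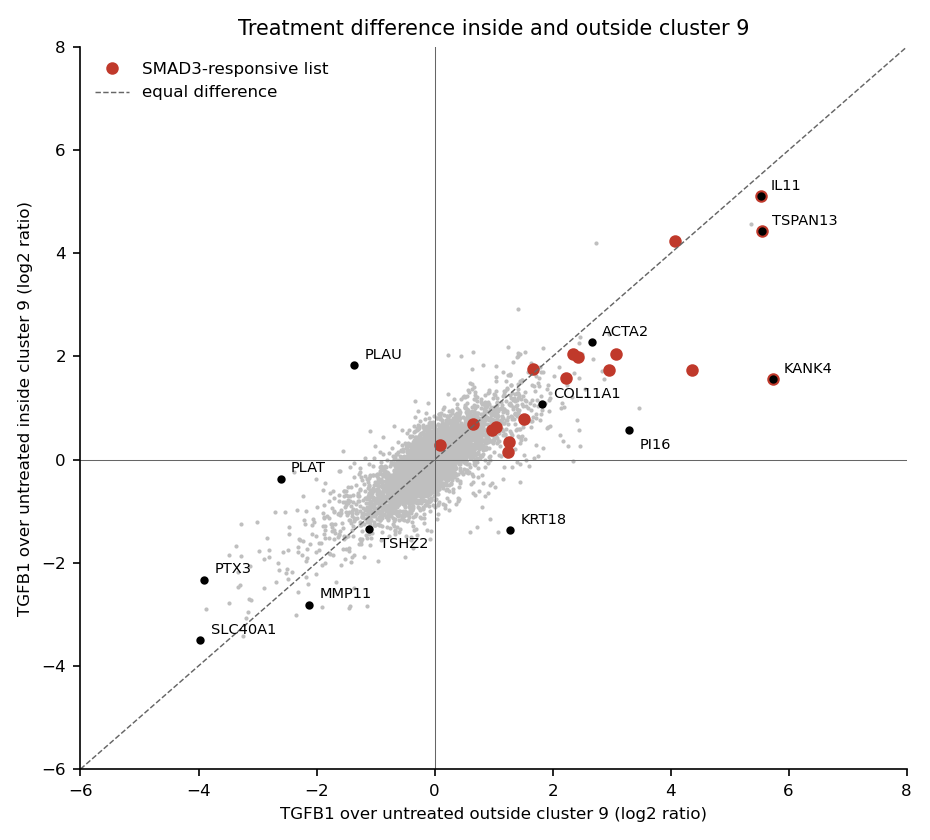
Log2 ratio of TGFB1 over untreated for each gene tested, outside cluster 9 (horizontal axis) and inside it (vertical axis), with SMAD3-responsive genes in red, other genes in grey and labelled genes in black; the dashed line marks equal ratios. IL11 lies near the line. TSPAN13, KANK4 and PI16 lie below it, with differences of -4.17 for KANK4 and -2.73 for PI16, and PLAU lies above it with 3.19.

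Contractile genes were also higher with TGFB1 in the cluster, with 6 of 16 higher (ACTA2, CNN1, TPM1, SMTN, ACTN1 and TNS1), 0 lower and a median log2 ratio of 0.88. Outside, 8 of 16 were higher and the median was 0.98. Over all genes tested, 2.67% were higher inside the cluster and 3.86% outside it. ACTA2 had 596 CPM in TGFB1 cells against 122 CPM in untreated cells of cluster 9, 4.87-fold (4.25 to 5.59), and was 6.32-fold higher outside. CNN1 (calponin) had 189 CPM against 61.5 CPM and TPM1 (tropomyosin) 5067 CPM against 1583 CPM.

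Among matrix genes the differences went both ways. Of 32 tested, 2 were higher with TGFB1 inside the cluster (COL11A1 and VCAN), 4 were lower (COL14A1, FBN2, POSTN and FBLN1) and the median was 0.04. The lower count was 2 with TMM and 1 with the median of ratios. Over all genes tested with the main scaling, 2.67% were higher and 4.08% lower. COL11A1 had 162 CPM against 76.2 CPM, 2.12-fold (1.77 to 2.56), and VCAN had 2813 CPM against 1340.0 CPM, 2.10-fold. POSTN had 1350.2 CPM with TGFB1 against 2841 CPM, a ratio of 0.475. COL14A1, a fibril-associated collagen, had 13.01 CPM against 48.8 CPM.

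The given markers PI16 and PTX3 did not differ the same way between the libraries. PI16 had 390.1 CPM in TGFB1 cells against 262 CPM in untreated cells of cluster 9, 1.49-fold (1.34 to 1.65), while outside it had 70.0 CPM against 7.11 CPM, 9.84-fold. Without the deepest 5% of cells the log2 ratio inside the cluster was 0.11 in place of 0.57. The shares of cells with PI16 at equal depth, 40.5% and 35.3%, had overlapping intervals. PTX3 had 99.5 CPM in TGFB1 cells against 499.9 CPM in untreated cells of the cluster, a ratio of 0.199 (0.175 to 0.226), and outside 13.4 CPM against 200.1 CPM. Of the other progenitor markers, CD55 and DPT were higher with TGFB1 inside the cluster and DPP4 lower, which made 2 of 11 higher and 1 lower, and the list's median log2 ratio was -0.12. CD55, a complement regulator, had 232 CPM against 102 CPM, and DPP4 had 85.2 CPM against 213 CPM.

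Among the leading genes, TSHZ2 was lower with TGFB1, at 251 CPM against 636 CPM in the cluster, a ratio of 0.395 (0.361 to 0.432). KCND2 had a ratio of 0.671 and ENG one of 0.875 (0.782 to 0.980), both under the 2-fold threshold. TSHZ2 UMIs were also spread over the cells, the 19 and 11 cells with the most TSHZ2 holding 46.7% in the TGFB1 library and 37.4% in the untreated library, and the corresponding ENG values were 34.0% and 32.6%.

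At the other end of the ranking stood SLC40A1, DCLK1 and 10 other genes. SLC40A1 (ferroportin), the iron exporter, had 2.48 CPM in TGFB1 cells against 29.5 CPM in untreated cells, 11.9-fold lower (5.65 to 28.8). DCLK1, a microtubule-associated kinase, had 12.7 CPM against 138 CPM, 10.8-fold lower. CLDN11, a tight junction protein, had 20.4 CPM against 153 CPM, 7.50-fold lower (5.73 to 9.95). MMP11, a matrix metalloproteinase of stromal cells, had 3.72 CPM against 26.9 CPM, 7.24-fold lower. ADM, the vasodilator peptide adrenomedullin, had 21.7 CPM against 149 CPM, 6.89-fold lower. LINC02511, KCNIP4, KRTAP1-5, ZMAT4, ATP8B4, FAM13C and PDE7B-AS1 completed the 12 lowest, and 66.7% of the untreated ZMAT4 UMIs came from 1 cell.

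Interferon-induced genes were lower with TGFB1, with 5 of 9 lower and 0 higher inside the cluster (IFIT1, IFIT2, IFIT3, IFITM1 and IRF1) and a median of -1.17. The same count outside was 5 of 9, with a median of -1.43. IFIT1, an antiviral RNA-binding protein, had 4.65 CPM in TGFB1 cells against 31.0 CPM in untreated cells of cluster 9, and IFIT3 had 5.27 CPM against 30.0 CPM. Of 14 pentraxin and complement genes, 1 was higher (CD55) and 4 lower (PTX3, C3, CFB and CFD), with a median of -0.69, and C3 had 41.5 CPM against 96.5 CPM. Of 6 preadipocyte and adipogenic genes, 2 were lower and 0 higher. These were PPARG, the master regulator of adipogenesis, with 9.60 CPM against 24.9 CPM, and PLIN2, a lipid droplet coat protein, with 51.4 CPM against 139 CPM. Outside the cluster 2 of 5 were lower. Over all genes tested, 4.08% were lower inside the cluster and 4.85% outside it.

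The treatment difference itself differed at least 2-fold between cluster 9 and the other cells in some genes, 61 with a higher ratio inside (0.841% of 7254) and 95 with a lower one (1.31%). PLAU and KRT18 were the 2 genes (0.0313% of 6396) at least 2-fold higher on one side and at least 2-fold lower on the other. PLAU, the urokinase plasminogen activator, had 24.2 CPM in TGFB1 cells against 6.60 CPM in untreated cells of cluster 9, from 78 and 13 UMIs, 3.66-fold (2.02 to 7.18). Outside it had 7.97 CPM against 20.5 CPM, a ratio of 0.390. KRT18, a simple epithelial keratin, had 81.8 CPM against 212 CPM in cluster 9, a ratio of 0.386, and 80.2 CPM against 33.0 CPM outside, 2.43-fold.

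PLAT, PDGFD and SRPX2 also had higher ratios of TGFB1 over untreated inside the cluster than outside it. PLAT, the tissue plasminogen activator, had 28.8 CPM against 37.1 CPM inside, a ratio of 0.777, and 6.82 CPM against 41.6 CPM outside, a ratio of 0.164. PDGFD, a platelet-derived growth factor, had 35.6 CPM against 84.8 CPM inside and 2.14 CPM against 20.9 CPM outside, with ratios of 0.420 and 0.102. SRPX2, a secreted sushi-repeat protein, had 34.1 CPM against 8.13 CPM inside, 4.19-fold, and 6.61 CPM against 5.62 CPM outside, 1.18-fold. Among 17 matrix protease and inhibitor genes, 4 had a ratio at least 2-fold higher inside (ADAMTS5, PLAU, PLAT and PAPPA) and 1 a lower one (TIMP3). In the other direction, 3 of 13 BMP pathway genes had a lower ratio inside (ID3, ID4 and BAMBI) and 0 a higher one, with a median difference of -0.66. ID3, an inhibitor of basic helix-loop-helix factors, had 1594 CPM against 1431 CPM inside and 1766 CPM against 732 CPM outside.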

How the data were processed

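Single-cell RNA of 2 cultures was profiled with 10x droplets, 1 library per condition. UMI counts per gene and cell were deposited by the authors with a table of cells that gives library, cluster, UMIs and the mitochondrial percent of each cell, as deposited. Cell Ranger 9.0.1, Seurat and GRCh38 are named in the submitters' processing notes, and the cluster column names a resolution of 0.4. Neither an annotation release nor a strand setting is given in the sources used here. In all, the matrix holds 38606 genes and 20656 cells, and the sums per cell equalled the table in all of them. The deposited cells have at least 502 genes and at most 5.00% mitochondrial UMIs, and no further cell was removed. No doublet caller was run, and an alternative left out the deepest 5% of cells of each library.

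Counts were summed over the cells of a group and divided by the group's total (CPM). Ratios carry exact conditional binomial (Clopper-Pearson) 95% intervals, shares exact binomial ones, and differences of log2 ratios a normal interval on the Poisson sums. Cells are not replicates, so no p-value was computed. Higher and lower mean at least 2-fold at 20 CPM or more in either sum. For ranking, 0.5 UMI was added to each sum. Shares were compared after thinning each cell to 7500 UMIs without replacement. Alternatives were TMM and median-of-ratios scaling, equal weight per cell, thinning, minimum levels of 5 and 50 CPM, a 1.5-fold threshold, other cell filters and another set of comparison cells. The calculation was tested on simulated counts.

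The genes named are the 12 highest and 8 lowest ratios of cluster 9 over other cells in the library where the ratio is nearer to 1, the highest in each library alone, the 12 highest and 12 lowest of TGFB1 over untreated inside the cluster, the 6 extremes of its difference from outside, PI16, PTX3, IL11, the progenitor markers and up to 3 members of each other list. Genes outside that rule that are given with values were chosen after their values were seen. The members and lists were chosen with earlier results of these data known. Sex-linked genes that could describe the donor were left out. Positions are from GENCODE 29 and promoter windows from RefSeq. TMM factors came from edgeR 4.0.16 in R 4.3.3, and all else from Python 3.11.15 with scipy 1.17.1, numpy 2.4.6 and pandas 2.3.3. Some genes are not reported here.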

Additional observations from a re-analysis of the deposited data

Results flagged for a closer look

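The libraries differed in opposite directions inside and outside cluster 9 for 2 genes, PLAU and KRT18. For PLAU the log2 ratio of TGFB1 over untreated was higher inside than outside by 3.19 (counting interval 2.35 to 4.02), with ratios of 3.66 inside and 0.390 outside, and its untreated level in the cluster rests on 13 UMIs in 8 cells. For KRT18 the difference was -2.65 (-2.88 to -2.43), with ratios of 0.386 inside and 2.43 outside. Neither difference was tested, since each condition is 1 library.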

How the results depend on the processing

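No paired analysis was possible because each condition is 1 library without a replicate number, and no library could be left out. Of the log2 ratios of named genes under the alternatives, 3173 stayed within their counting interval, 1264 moved outside it and 2 of at least 2-fold turned sign. A change of sign in a ratio under 2-fold was not counted separately. ENSG00000232855 inside the cluster had a log2 ratio of 0.0175 after thinning, and ZMAT4 had a difference between inside and outside of 0.77 without the deepest 5% of cells. Of the counts, shares and correlations, 54 stayed close and 60 moved; the cause was not tested. Counts are given as higher, then lower, against the other cells in the TGFB1 library (T) and untreated library (U), for the treatment inside (I) and outside (O) the cluster, and for inside against outside (D). With TMM, T was 170 and 230, U 288 and 497, and D 40 higher. With the median of ratios, T was 213 and 107, U 322 and 376, and I 187 lower. With equal weight per cell, T was 532 and 70, U 1053 and 338, and D 111 and 234. After thinning to 7500 UMIs, I was 306 and 508, T 76 lower, U 910 and 310, and D 180 and 285. At 5 CPM, I was 387 and 892, O 395 and 668, T 891 and 103, U 1406 and 357, and D 279 and 417. At 50 CPM, I was 127 and 121, O 160 lower, T 178 and 7, U 272 and 81, and D 28 and 52. At 1.5-fold, I was 628 and 849, O 642 and 766, T 1030.0 and 193, U 1416 and 627, and D 331 and 322. Without the deepest 5%, T was 54 lower, U 223 lower and D 94 higher. Without cells holding a MKI67 or TOP2A UMI, U was 89 lower. Thinned to 3000 UMIs, PI16 was seen in 24.0% of TGFB1 and 21.8% of untreated cells of cluster 9 and PTX3 in 33.7% of untreated cells, and unthinned PTX3 was seen in 27.9% of TGFB1 cells. Depth limits the untreated side most: 1968599 UMIs in 108 cells leave low genes with a few UMIs.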

Other observations

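Of 39 HOX genes, the positional identity factors, chosen after their values were seen, 8 were tested against the other cells in the TGFB1 library and 10 in the untreated library. Of those tested, 0 were at least 2-fold higher or lower in the TGFB1 library and HOXA3 was higher in the untreated library, with medians of -0.01 and 0.11. HOXA3 had 18.0 CPM in cluster 9 against 4.09 CPM in the TGFB1 library and 34.5 CPM against 3.63 CPM in the untreated library. It was 4.39-fold higher in the TGFB1 library too, but was not counted there because both levels lay under 20 CPM.

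Among p53 and senescence genes, GDF15 and ZMAT3 were higher in cluster 9 of the TGFB1 library (2 of 12). In the untreated library 5 of 13 were higher, and 0 were lower in either library. Over all genes tested, 5.14% and 7.56% were higher with the main scaling, on which such counts depend. Of the cholesterol synthesis genes, 2 of 8 and 4 of 10 were higher and 0 lower, and INSIG1, which restrains sterol synthesis, had 38.7 CPM against 8.93 CPM and 35.0 CPM against 7.84 CPM.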
